A study of Mus musculus with 12 samples.

Results

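The genes described here make, sense or clear prostaglandins, and there were 10 of them: *Pla2g4a*, *Ptgs1*, *Ptgs2*, *Ptges*, *Ptgis*, *Ptgds*, *Ptger2*, *Ptger4*, *Ptgfr* and *Hpgd*. They were taken by symbol, out of 27962 genes named on the array, and every non-control probe that carried a listed symbol was kept, which gave 16 probes. The array was a single-colour Agilent whole-genome design, and 12 of them were hybridised with RNA from C57MG, an established mouse cell line labelled as mammary epithelial. All 12 monolayers came from this single line and spent 24 h in plain DMEM without serum or added insulin. The 3 BSA monolayers received only bovine serum albumin, the vehicle. The 3 Rspo2 monolayers received recombinant human R-spondin 2 at 100 ng/ml, a secreted protein that strengthens Wnt signalling. The 3 Wnt3a monolayers received recombinant mouse Wnt3a at 100 ng/ml, and the last 3 received both proteins at these doses. The comparisons asked which transcripts each protein changed alone and which changed when both were present. The labels call the monolayers biological replicates, so p-values measure the spread between wells of 1 line.

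Prostaglandins are short-lived lipid signals. Cytosolic phospholipase A2 releases arachidonic acid from membranes, a cyclooxygenase turns it into prostaglandin H2, and a terminal synthase turns that into prostaglandin E2, D2 or I2. Each product acts on its own G protein-coupled receptors, and 15-hydroxyprostaglandin dehydrogenase inactivates prostaglandin E2. Cyclooxygenase 2 is the inducible form of the enzyme, and in mammary tissue it is best known for its overexpression in tumours.

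Of the 16 probes, 9 were detected, meaning that in some group each of the 3 arrays carried the scanner software's mark for a signal well above background, and all 9 carried it on all 12 arrays. They measured 7 of the genes: *Pla2g4a*, *Ptgs1*, *Ptgs2*, *Ptges*, *Ptgds*, *Ptger4* and *Ptgfr*. No probe was saturated. The other 7 probes were not tested. *Ptgis*, which encodes prostacyclin synthase, was well above background on 1 BSA array and 1 array with both proteins, and its signal over the 12 arrays was 5.12 to 43.2 intensity units. *Ptger2*, which encodes the prostaglandin E receptor EP2, was well above background on 1 BSA array and 1 Wnt3a array, at 3.11 to 85.1 units overall. The 3 probes of *Hpgd*, the gene of the inactivating dehydrogenase, were well above background on no array, at 3.07 to 13.5 units. The second probes of *Ptger4* and *Ptgfr* were also dim on every array, at 4.15 to 24.7 and 4.40 to 20.5 units, although the first probe of each gene was detected throughout. The lowest signal marked well above background ranged from 15.4 to 43.8 units between arrays, so the dim probes give only a bound and no direction. Among the arrays, BSA replicate 1 and replicate 1 with both proteins had 64.2% and 61.7% of all probes well above background, against 51.3% to 58.8% on the other 10.

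**Figure D1:**
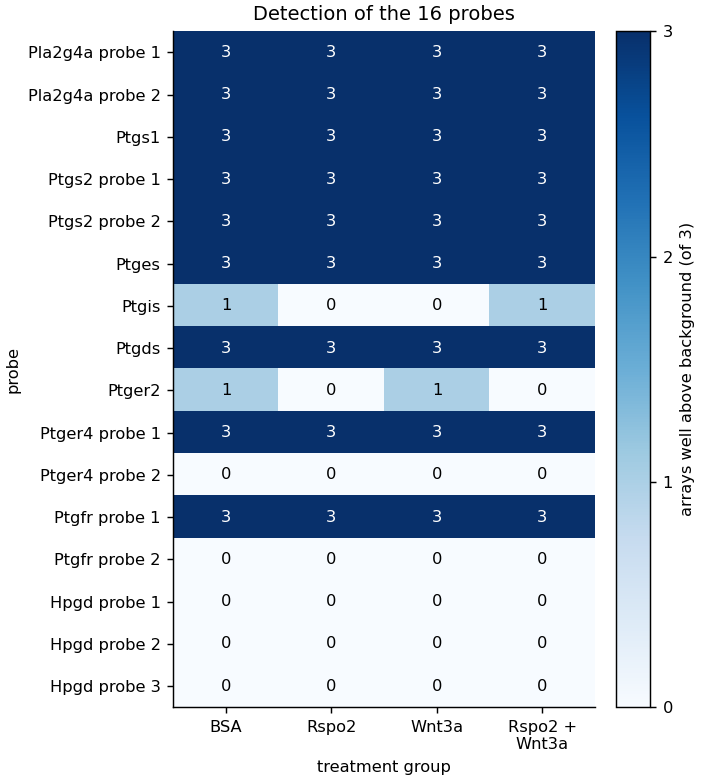
Each cell gives the number of arrays, out of 3 per treatment group (horizontal axis), on which a probe (vertical axis) was marked well above background. The 9 detected probes were marked on all 12 arrays, and 5 of the others on none.

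With Rspo2 plus Wnt3a, *Ptgs2* transcripts were raised by 0.58 and 0.69 on the log2 scale by its 2 probes (up to 1.61-fold), while *Ptger4* and *Ptgfr*, which encode receptors for prostaglandin E2 and prostaglandin F2alpha, were 2.29 and 2.42 times lower. The *Ptger4* fall held under every alternative that was run, whereas that of *Ptgfr* was below 2-fold without 1 BSA array and did not pass with another background correction, with the methods' t-test or with a term for the slide. The *Ptgfr* probe was also dim, at 38.9 to 46.4 intensity units with both proteins. The prostaglandin D synthase gene *Ptgds* was 1.70 times lower and the prostaglandin E synthase gene *Ptges* 1.32 times lower. Wnt3a alone moved *Ptgs2*, *Ptger4* and *Ptges* in the same directions, and no gene passed the test with Rspo2 alone. Each array reports the whole monolayer, in which fewer cells of a type and less RNA per cell cannot be told apart.

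Because the level of a probe is set by its own chemistry as well as by its target, values are compared only within a probe. They are given as log2 of the signal over the 75th percentile of the same array, so that 0 is the signal of that percentile. The verbs rose and fell are kept for changes with a Benjamini-Hochberg adjusted p below 0.05 over all 22751 detected probes in limma, and a change that was also at least 2-fold is named as such. By these thresholds together, 0 of the 9 probes passed for Rspo2 against BSA (0.721% of all detected probes), 0 for Wnt3a against BSA (2.52%), and 2 for both proteins against BSA (5.08%, and 3.79% for lower values alone). For both proteins against Wnt3a 0 passed (0.747%), for both against Rspo2 2 passed (2.67%, and 1.7% for lower values), and for the interaction, which asks whether the change with both differed from the sum of the single changes, 0 passed (1.93%). Where the count was 0, some probes had an unadjusted p below 0.05 in limma. They were 2 for Rspo2, 6 for Wnt3a, 4 for both against Wnt3a and 3 for the interaction. The share of all detected probes below that unadjusted p was not counted, so these numbers say nothing particular about the 9 probes. Where the count was 0, the methods' t-test, which was run for the comparisons of groups, also gave 0 at 2-fold. By the adjusted p alone, whatever the size, 0 of the 9 probes passed for Rspo2 (16.8% of all detected probes), 5 for Wnt3a (31.5%), 7 for both against BSA (39.2%), 1 for both against Wnt3a (4.27%), 5 for both against Rspo2 (16.5%) and 1 for the interaction (8.9%). The median change of the 9 probes from BSA was 0.06 with Rspo2, 0.02 with Wnt3a and -0.25 with both, against medians over all detected probes of 0.01, -0.00 and 0.04. The 3 comparisons with BSA share their control arrays.

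**Figure D2:**
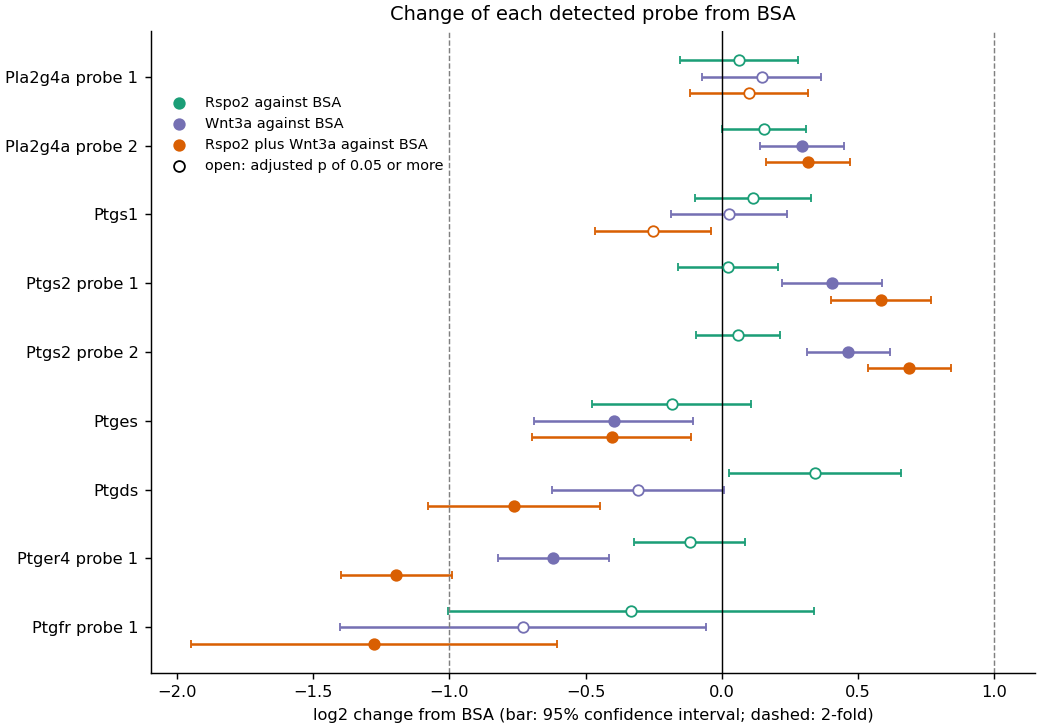
Points are log2 changes from BSA (horizontal axis) of each detected probe with Rspo2, Wnt3a or both, bars are 95% confidence intervals from 3 arrays a group, and filled points have an adjusted p under 0.05. Both *Ptgs2* probes lie to the right with Wnt3a and with both proteins, and *Ptger4* and *Ptgfr* lie past the dashed 2-fold line with both.

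The 3 genes on which the results turn most are shown with the RefSeq sequence of the 250 bases before their transcript start, read 5′ to 3′ on the gene's strand in GRCm38.p6. The array data do not bear on these promoters directly, and they are printed because the transcripts moved in opposite directions. Capitals mark matches to the C/EBP letters TTNNGNAA on either strand, where N is any base. The windows are chr1:150099781-150100030 on the plus strand for *Ptgs2*, chr15:5244188-5244437 on the minus strand for *Ptger4* and chr3:151837529-151837778 on the minus strand for *Ptgfr*.
Ptgs2: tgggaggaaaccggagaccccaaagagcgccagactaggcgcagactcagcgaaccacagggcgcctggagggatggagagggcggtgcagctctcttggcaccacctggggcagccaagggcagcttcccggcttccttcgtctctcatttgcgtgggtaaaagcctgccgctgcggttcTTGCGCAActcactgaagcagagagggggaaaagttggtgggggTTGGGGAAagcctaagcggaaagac
Ptger4: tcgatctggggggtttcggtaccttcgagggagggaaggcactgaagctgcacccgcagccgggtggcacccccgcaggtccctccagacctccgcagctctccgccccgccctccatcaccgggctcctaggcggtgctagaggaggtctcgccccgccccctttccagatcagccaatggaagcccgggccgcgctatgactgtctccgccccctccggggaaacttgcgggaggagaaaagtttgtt
Ptgfr: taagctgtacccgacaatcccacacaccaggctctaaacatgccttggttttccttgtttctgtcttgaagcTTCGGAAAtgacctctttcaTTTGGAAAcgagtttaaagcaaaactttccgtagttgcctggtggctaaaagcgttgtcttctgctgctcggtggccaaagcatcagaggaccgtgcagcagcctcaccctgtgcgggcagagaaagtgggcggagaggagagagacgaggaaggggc
The *Ptger4* window was the richest of the 3 in G and C (66.8%, against 61.6% for *Ptgs2*, 52% for *Ptgfr* and a median of 52.4% over 32851 promoters). In *Ptgs2* the C/EBP letters lay 69 to 62 and 25 to 18 bases before the start, and the first of these matches reads the same on both strands. In *Ptgfr* they lay 178 to 171 and 158 to 151 bases before the start, and in *Ptger4* they were not present. Of the 9 genes with a promoter in the table (there was no entry for *Ptgis*), 7 held the C/EBP letters in at least 1 window, as did 36.8% of all promoters. The letters of an AP-1 site, TGANTCA, were found in *Ptgds* alone of the 9, 35 to 29 bases before the start (6.75% of all promoters). The letters TATAAA of a TATA box were found in *Pla2g4a* alone (12.4%). They lay on the opposite strand of a single window, 200 to 195 bases before the start. The letters searched for NF-kB (GGGA and CC with any 4 bases between, 17.6%), an E-box (CACGTG, 6.02%), a cAMP response element (TGACGTCA, 1.55%), its shorter core (TGACG, 17.8%, which every full element also holds) and TCF/LEF (CTTTGAT, 3.21%) were in none of the 9. A match or its lack describes these letters in these windows and no more.

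*Pla2g4a* encodes cytosolic phospholipase A2, which frees arachidonic acid, and it had 2 detected probes that gave different calls. By probe 2 the log2 values were 2.12, 2.06 and 2.14 with BSA, 2.27, 2.25 and 2.26 with Rspo2, 2.38, 2.49 and 2.33 with Wnt3a and 2.35, 2.47 and 2.45 with both. Every treated array lay above every BSA array, by little. The rise was 0.29 with Wnt3a (SE 0.07, adjusted p = 0.00991, 1.23-fold) and 0.32 with both proteins (SE 0.07, adjusted p = 0.005), and the difference with Rspo2 was 0.16 (adjusted p = 0.14). The rise with Wnt3a depended on the scaling, being 0.14 (adjusted p = 0.196) under quantile normalization and 0.17 (adjusted p = 0.0885) with the percentile of probes detected throughout, and it also did not pass with normexp background correction (adjusted p = 0.272), the methods' t-test after adjustment (0.0782) or a slide term (0.307). The rise with both proteins did not pass under quantile normalization (0.18, adjusted p = 0.0844), normexp (adjusted p = 0.247) or a slide term (0.252). Probe 1 did not pass in any of these comparisons: its values ranged from 2.68 to 3.07 over the 12 arrays, with a difference from BSA of 0.15 for Wnt3a (adjusted p = 0.284) and of 0.10 for the pair of proteins (adjusted p = 0.461), and both differences turned negative under another scaling. Its interval with both proteins, -0.12 to 0.32, includes the rise seen by probe 2.

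*Ptgs1* encodes cyclooxygenase 1, the constitutive form of the enzyme. Its values were 4.13, 3.93 and 3.86 with BSA, 3.98, 4.17 and 4.10 with Rspo2, 3.92, 4.15 and 3.92 with Wnt3a, and 3.74, 3.67 and 3.74 with both. The 3 arrays with both proteins were the lowest of the 12. *Ptgs1* fell by 0.37 with both relative to Rspo2 (SE 0.10, adjusted p = 0.0249, 1.29 times lower), a call that was lost on leaving out any 1 of 5 arrays (adjusted p up to 0.0951) and under 6 other alternatives, among them a slide term (-0.31, adjusted p = 0.363) and normexp (-0.078, adjusted p = 0.724). The differences of -0.25 from BSA (adjusted p = 0.0576) and -0.28 from Wnt3a (adjusted p = 0.153) did not pass. The difference from BSA did pass under quantile normalization and with the percentile of probes detected throughout. It ranged from -0.49 to -0.14 under the alternatives that kept all arrays, and did not pass on leaving out any 1 of 11 arrays. Wnt3a alone differed from BSA by 0.02 (adjusted p = 0.869, interval -0.19 to 0.24), a difference whose sign turned with the scaling.

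*Ptgs2* encodes cyclooxygenase 2, and its promoter is the first of those printed above. Probe 1 gave 0.96, 0.75 and 0.85 with BSA, 0.87, 0.93 and 0.83 with Rspo2, 1.24, 1.36 and 1.17 with Wnt3a, and 1.36, 1.44 and 1.51 with both. Probe 2 gave 0.68, 0.62 and 0.68 with BSA, 0.74, 0.75 and 0.67 with Rspo2, 1.08, 1.22 and 1.07 with Wnt3a, and 1.30, 1.37 and 1.37 with both. By each probe the 6 arrays that had received Wnt3a lay above the 6 that had not, and BSA and Rspo2 overlapped. The rise with Wnt3a was 0.40 by probe 1 (SE 0.08, adjusted p = 0.00523, 1.32-fold) and 0.46 by probe 2 (SE 0.07, adjusted p = 0.00138, 1.38-fold), and neither passed with normexp (adjusted p = 0.12 and 0.178) or the methods' t-test after adjustment (0.0691 and 0.0525). With both proteins it was 0.58 (SE 0.08, adjusted p = 0.000425) and 0.69 (SE 0.07, adjusted p = 4.3e-05), the largest rise among the 9 probes and still below 2-fold. Relative to Rspo2 alone, both proteins gave rises of 0.56 (adjusted p = 0.000992, 1.48-fold) and 0.63 (adjusted p = 0.000143, 1.55-fold). Addition of Rspo2 to Wnt3a was not shown to raise *Ptgs2* further, since the difference by probe 2 was 0.22 (adjusted p = 0.113, interval 0.07 to 0.38 before adjustment). Probe 1 was printed 10 times on each array, and the spread of these spots was 0.733% to 5.36% of their mean.

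**Figure D3:**
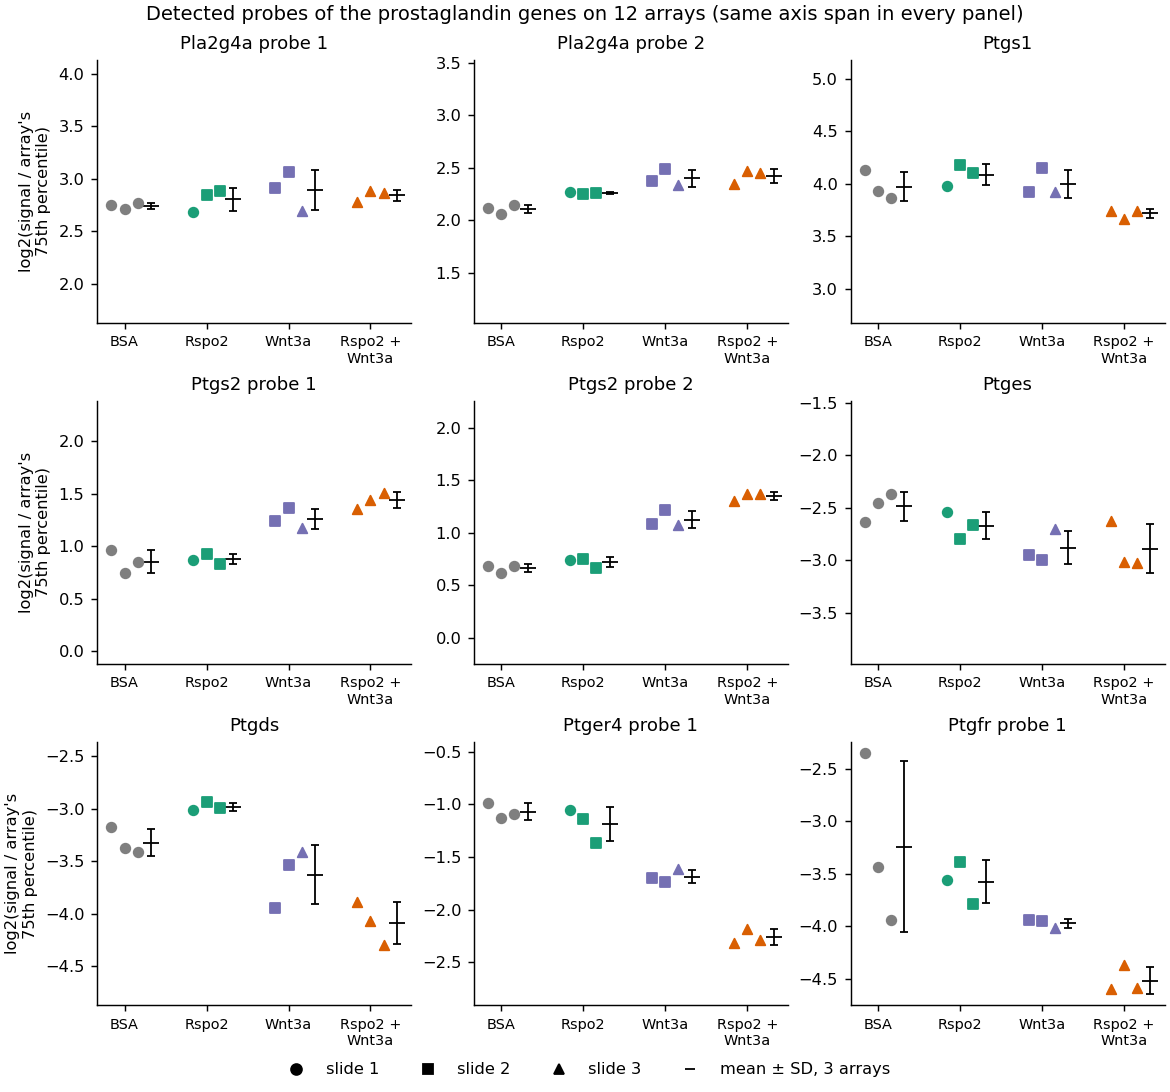
Each panel plots 1 detected probe, with log2 of the signal over the array's 75th percentile on the vertical axis and the treatment group on the horizontal axis; symbols are single arrays, their shape gives the slide, and black marks are the mean ± SD of 3 arrays. The *Ptgs2* means run from 0.86 with BSA to 1.44 with both proteins by probe 1, the *Ptger4* means from -1.07 to -2.26, and the *Ptgfr* array at -2.35 stands above all others of its panel.

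*Ptges* encodes the inducible prostaglandin E synthase. Its values were -2.64, -2.45 and -2.37 with BSA, -2.54, -2.80 and -2.67 with Rspo2, -2.95, -2.99 and -2.70 with Wnt3a, and -2.62, -3.02 and -3.03 with both. The Wnt3a arrays lay below the BSA arrays, and 1 of the 3 arrays with both proteins lay within the BSA range. *Ptges* fell by 0.40 with Wnt3a (SE 0.13, adjusted p = 0.042, 1.32 times lower) and by 0.40 with both (SE 0.13, adjusted p = 0.0321, 1.32 times lower). These falls were close to the threshold, which the first lost on leaving out any 1 of 6 arrays and the second any 1 of 4, with adjusted p up to 0.118 for the second. Under quantile normalization they were -0.18 (adjusted p = 0.315) and -0.22 (adjusted p = 0.197), and neither passed with normexp (adjusted p = 0.615 and 0.512), without the filter on dim probes (0.112 and 0.0868), with the methods' t-test after adjustment (0.126 and 0.162) or with slide as a random block (0.0944 and 0.0643), nor did the first with the authors' table (0.0514).

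*Ptgds* encodes the lipocalin-type prostaglandin D synthase, and it was the only one of the 7 genes whose interaction passed the adjusted p, which it did not under several alternatives. Its values were -3.18, -3.38 and -3.42 with BSA, -3.01, -2.94 and -2.99 with Rspo2, -3.95, -3.53 and -3.41 with Wnt3a, and -3.89, -4.07 and -4.30 with both. The Rspo2 arrays were the highest of the 12, and those with both proteins lay below every BSA and Rspo2 array but overlapped with Wnt3a. Relative to BSA, Rspo2 alone differed by 0.34 (adjusted p = 0.117, 1.27-fold) and Wnt3a alone by -0.31 (adjusted p = 0.125), neither of which passed. The first did pass under quantile normalization (0.47, adjusted p = 0.0258). The second passed with the percentile of probes detected throughout, and ranged from -0.42 to -0.15 on leaving out each array. Both proteins together gave a fall of 0.76 from BSA (SE 0.14, adjusted p = 0.00203, 1.70 times lower) and of 1.11 from Rspo2 (SE 0.14, adjusted p = 0.000414), which was 2.15 times lower and so past 2-fold. The difference from Wnt3a, -0.46, did not pass (adjusted p = 0.116). The interaction was -0.80 (SE 0.20, adjusted p = 0.0385), and leaving out any 1 of 9 of the 12 arrays raised its adjusted p above the threshold, up to 0.0921. It also did not pass with the authors' table (adjusted p = 0.0726), without the filter on dim probes (0.131), with slide as a random block (0.0639) or with normexp (0.914). The probe was dim, at 53.8 to 126 intensity units. With the background corrected by the normexp model instead, the fall from Rspo2 was 1.24 with an adjusted p of 0.218, and the fall from BSA did not pass. With the methods' t-test after adjustment neither fall passed (adjusted p = 0.0534 from BSA and 0.110 from Rspo2).

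*Ptger4* encodes the prostaglandin E receptor EP4, which signals through cAMP, and it gave the firmest change among the 10 genes. Its values were -0.98, -1.13 and -1.09 with BSA, -1.05, -1.14 and -1.36 with Rspo2, -1.70, -1.74 and -1.62 with Wnt3a, and -2.32, -2.18 and -2.29 with both. BSA and Rspo2 overlapped, the Wnt3a arrays lay below both, and the arrays with both proteins lay lowest, apart from all others. The means were -1.07 ± 0.08 with BSA, -1.19 ± 0.16 with Rspo2, -1.69 ± 0.06 with Wnt3a and -2.26 ± 0.07 with both (SD, n = 3 each). *Ptger4* fell by 0.62 with Wnt3a (SE 0.09, adjusted p = 0.00136) and by 1.19 with both proteins (SE 0.09, interval -1.40 to -0.99, adjusted p = 6.7e-06, 2.29 times lower). It also fell with both relative to Wnt3a alone, by 0.58 (SE 0.09, adjusted p = 0.00514, 1.49 times lower), the only one of the 9 probes to pass in that comparison, and relative to Rspo2 alone, by 1.08 (adjusted p = 2.4e-05, 2.11 times lower). With normexp neither the fall with Wnt3a (adjusted p = 0.142) nor the fall relative to Wnt3a (-0.42, adjusted p = 1.00) passed, and with the methods' t-test after adjustment neither did the latter (adjusted p = 0.134) nor the fall relative to Rspo2 (0.0648). The interaction was -0.46 with an adjusted p of 0.0528. The fall from BSA with both proteins ranged from -1.24 to -1.15 on leaving out each array in turn. It rests on probe 1, since probe 2 was at background on every array.

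*Ptgfr* encodes the receptor for prostaglandin F2alpha, best known for its part in labour and luteal regression. Its values were -2.35, -3.44 and -3.94 with BSA, -3.56, -3.38 and -3.79 with Rspo2, -3.95, -3.95 and -4.02 with Wnt3a, and -4.60, -4.37 and -4.59 with both. The detected probe was dim, at 38.9 to 46.4 intensity units with both proteins and at most 186 on any array. The BSA arrays were spread over more than the whole distance from their mean to that of the arrays with both proteins (SD 0.81, against 0.20, 0.04 and 0.13 in the other groups), and the highest of them, replicate 1, was the array with the most probes above background. The part of that array's detection in the result was not tested beyond leaving it out. *Ptgfr* fell by 1.28 with both proteins (SE 0.30, interval -1.95 to -0.60, adjusted p = 0.00744, 2.42 times lower), and by 0.83 (adjusted p = 0.00446), below 2-fold, without BSA replicate 1. Without BSA replicate 3, the lowest of the group, it fell by 1.62 (adjusted p = 0.00163). With normexp the change was -0.85 (adjusted p = 0.398), and the methods' t-test gave an unadjusted p above its threshold. With Wnt3a the difference was -0.73 (adjusted p = 0.0913), which became -0.28 (adjusted p = 0.225) without BSA replicate 1 and passed at -1.08 (adjusted p = 0.0171) without BSA replicate 3. Relative to Rspo2, both proteins differed by -0.94 (adjusted p = 0.0588), and since all groups share 1 estimate of the spread this passed without BSA replicate 1 (adjusted p = 0.00177) or BSA replicate 3 (0.0228).

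In the remaining results for Rspo2 against BSA, the 7 probes not yet given a difference ranged from -0.33 to 0.11, and 2 of the 9 probes had groups that did not overlap (43.5% of all detected probes). Groups did not overlap for 6 probes with Wnt3a (45.5%) and for 8 with both proteins (53.9%) against BSA, for 4 of both against Wnt3a (21.4%) and for 7 of both against Rspo2 (36.1%). Among the differences not yet given, 5 probes ranged from -0.55 to 0.18 for both against Wnt3a, those of *Pla2g4a* probe 1 and *Ptges* from -0.22 to 0.04 for both against Rspo2, where *Pla2g4a* probe 2 differed by 0.16 (adjusted p = 0.146), and the interactions of 6 probes from -0.21 to 0.17, beside that of *Ptgs1* at -0.39 (adjusted p = 0.0904). The shares without overlap are common on the array as a whole, and the size and error of each change say more than the lack of overlap.

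The arrays lay on 3 slides that did not hold the groups evenly. All 3 BSA arrays were on slide 1 beside the first Rspo2 array, slide 2 paired the remaining 2 Rspo2 arrays with 2 of Wnt3a, and the last Wnt3a array shared slide 3 with all 3 arrays of both proteins. No slide held BSA together with Wnt3a or with both, so these comparisons reach across slides only through the groups that were split. When a slide term was added to the fit, *Ptger4* still fell by 1.10 with both proteins (adjusted p = 0.028) and probe 2 of *Ptgs2* rose by 0.80 (adjusted p = 0.045), whereas the changes of *Ptgs2* by probe 1 (0.70, adjusted p = 0.123), *Ptgds* (-1.14, adjusted p = 0.123), *Ptgfr* (-1.18, adjusted p = 0.528), *Ptges* (-0.48, adjusted p = 0.48) and *Pla2g4a* by probe 2 (0.43, adjusted p = 0.252) kept their direction and did not pass. Of the changes with Wnt3a from BSA none passed with this term. The fall of *Ptger4* with both relative to Wnt3a was 0.65 (adjusted p = 0.0403), and relative to Rspo2 the falls of *Ptger4* by 1.12 (adjusted p = 0.0082) and *Ptgds* by 1.45 (adjusted p = 0.0206) and the rise of *Ptgs2* by probe 2 of 0.72 (adjusted p = 0.0243) passed, whereas that by probe 1 did not (0.69, adjusted p = 0.0522).

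Within a slide, where 2 groups met, the differences rest on 1 to 3 arrays a side and carry no test. For *Ptgs2* the 2 Wnt3a arrays of slide 2 exceeded the 2 Rspo2 arrays by 0.42 and 0.44 by the 2 probes, and on slide 3 the arrays with both proteins exceeded the Wnt3a array by 0.27 and 0.28. On slide 1 Rspo2 differed from BSA by 0.01 and 0.08. For *Ptger4* the same 3 differences were -0.47 on slide 2, -0.65 on slide 3 and 0.02 on slide 1. *Ptgds* differed by -0.77, -0.67 and 0.31, and *Ptgfr* by -0.36, -0.50 and -0.32. The arrays of slide 2 differ in both proteins, Wnt3a alone against Rspo2 alone, so those differences combine a difference for each protein, and for *Ptgds* the single Rspo2 array of slide 1 was also above the BSA mean there. On slide 3, where the arrays differ by Rspo2, *Ptgs2* was higher and the other 3 genes were lower with both proteins.

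**Figure D4:**
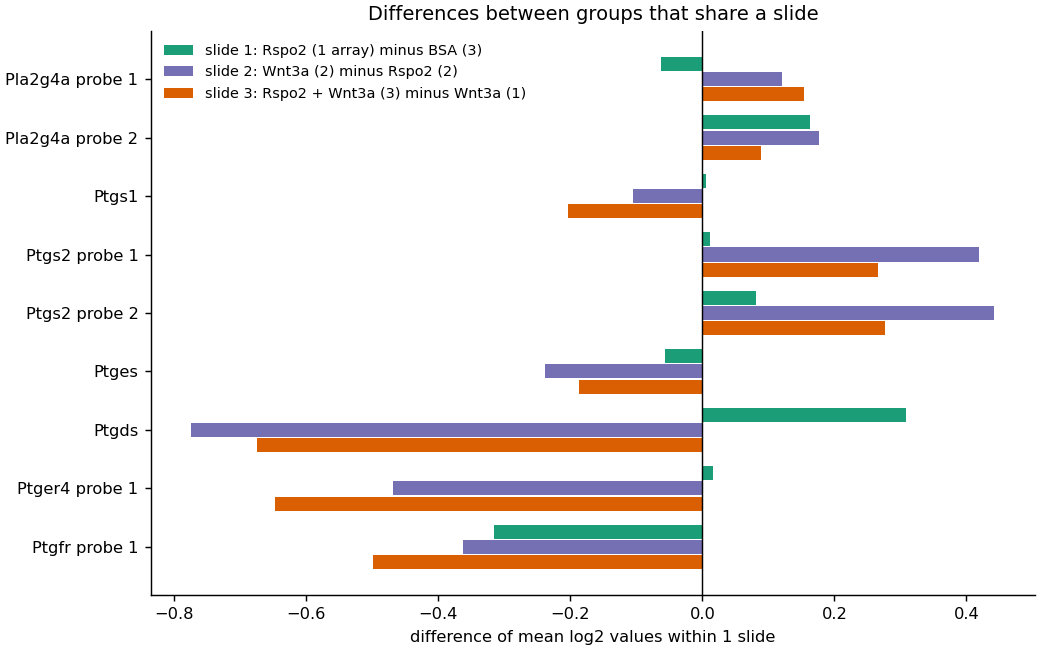
Bars start at 0 and give the difference of mean log2 values (horizontal axis) between the 2 groups that share a slide, for each detected probe: Rspo2 minus BSA on slide 1, Wnt3a minus Rspo2 on slide 2 and both proteins minus Wnt3a on slide 3. *Ptger4* differed by 0.02, -0.47 and -0.65, and *Ptgs2* probe 1 by 0.01, 0.42 and 0.27.

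The rest of the eicosanoid pathway was described by the same thresholds. Of 43 further genes (phospholipases, prostanoid synthases and receptors, transporters and breakdown enzymes, and leukotriene genes), 24 were detected by their brightest probe. With both proteins against BSA 6 rose and 1 fell by the adjusted p (39.2% of all detected probes passed), and only *Mgll* also passed 2-fold. With Wnt3a 7 rose and 0 fell (31.5% of all probes), and with Rspo2 4 rose and 1 fell (16.8%). The median changes of the 24 genes were 0.02 with both, 0.06 with Wnt3a and 0.08 with Rspo2, against 0.04, -0.00 and 0.01 over all probes. *Pla2g5*, a secreted phospholipase A2 gene singled out after its values were seen, rose by 0.31 with Rspo2 (adjusted p = 0.0292), by 0.41 with Wnt3a (adjusted p = 0.00399) and by 0.94 with both (adjusted p = 1.3e-05). *Mgll* encodes monoglyceride lipase, which frees arachidonic acid from 2-arachidonoylglycerol, and it rose by 1.01 for Wnt3a (adjusted p = 0.0021) and by 1.18 for both (adjusted p = 0.000424), while its other detected probe gave 0.34 and 0.50. With Wnt3a *Mgll* was below 2-fold with normexp (0.99), the percentile of probes detected throughout (0.89) or slide as a random block (0.98). The same held without BSA replicate 1, BSA replicate 3 or Wnt3a replicate 3. With both proteins *Mgll* was at 0.99 without replicate 1 of both, and did not pass the methods' t-test after adjustment (adjusted p = 0.0797). *Pla2g2e*, of the same enzyme family as *Pla2g5*, fell by 1.23 with both relative to Rspo2 (adjusted p = 0.00205), with an interaction of -1.29 (adjusted p = 0.0261). Its probe was dim, with medians of 73.7 units with Rspo2 and 38.4 with both. Neither *Mgll* nor *Pla2g2e* passed with slide as a term.

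Among the other prostanoid synthases, *Hpgds*, the hematopoietic prostaglandin D synthase gene, and *Tbxas1*, the thromboxane synthase gene, were not detected. Of the other receptors, *Ptger3* (EP3) was well above background on no array and *Ptgir*, the prostacyclin receptor gene, on 4 of the 12. *Ptger1*, which encodes EP1, was detected and differed from BSA by 0.06 with Rspo2, 0.06 with Wnt3a and 0.16 with both (adjusted p = 0.859, 0.838 and 0.577). By limma's adjusted p, 1 of the 6 detected other synthases and receptors, a synthase, passed with both proteins against BSA, where 39.2% of all detected probes did.

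Of 17 genes known to act on *Ptgs2* or *Ptges* expression, 14 were detected. With both proteins 2 rose and 6 fell by the adjusted p (39.2% of all detected probes passed), and their median change was -0.26, against 0.04 over all probes. With Wnt3a 2 rose and 5 fell (31.5% of all probes), and with Rspo2 2 rose and 3 fell (16.8%). *Cebpd*, a C/EBP transcription factor gene that inflammatory signals induce, fell by 0.47 with Rspo2 (adjusted p = 0.018), by 0.70 for Wnt3a (adjusted p = 0.001) and by 1.08 for both (adjusted p = 1.7e-05), the last past 2-fold under every alternative that was run. The inflammatory cytokine genes *Il1a*, *Il1b* and *Tnf*, singled out after their values were seen, were the 3 not detected.

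Of 12 genes that respond to cAMP, the messenger of EP2 and EP4, 11 were on the array and 10 detected. With both proteins 1 rose and 5 fell (39.2% of all detected probes passed), with Wnt3a 1 rose and 3 fell (31.5%), and with Rspo2 1 rose and 0 fell (16.8%) by the adjusted p. The median change with both was -0.35, against 0.04 over all probes. *Pde4b*, which encodes a phosphodiesterase that degrades cAMP, fell by 1.01 with both (adjusted p = 1.1e-05), and its other detected probes fell by 1.47 and 0.96. With the slide term it changed by -0.86 (adjusted p = 0.0559). *Ppargc1a*, which encodes a transcriptional coactivator, fell by 1.69 (adjusted p = 0.00035), and did not pass with slide as a term (-0.77, adjusted p = 0.344) or with normexp (-0.99, adjusted p = 0.278). Its probe was dim, with medians of 85.1 units with BSA and 21.8 with both.

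**Figure D5:**
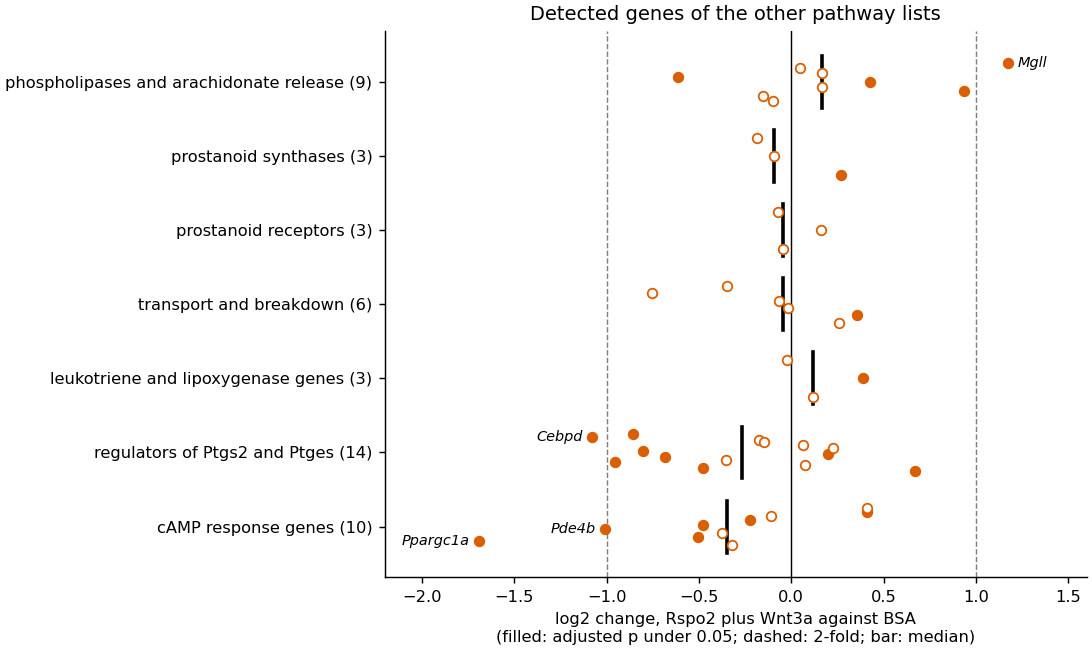
Points are the detected genes of each list (vertical axis, with their number) by log2 change with both proteins against BSA (horizontal axis); filled points have an adjusted p under 0.05, black bars are list medians and dashed lines mark 2-fold. *Mgll* at 1.18 lies past the line on the right, and *Cebpd*, *Pde4b* and *Ppargc1a* lie past it on the left.

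Over the 12 arrays the genes whose profile was most like that of *Ptger4*, among 13229 genes, were *Gbp9* (Pearson r = 0.993), *Angpt1* (0.992) and *Tmem44* (0.986), and those most like *Ptgfr* were *2900034E22Rik* (0.965), *Zfand5* (0.961) and *Fnip1* (0.955). The points share groups, slides and scaling, and the correlations are descriptions. *Angpt1* differed from BSA by -2.54 with both proteins, more than *Ptger4*, and *Gbp9* by -0.86. In RefSeq *Ptgs2* and *Pla2g4a* are close neighbours on chromosome 1, with 2 genes wholly between them (*Gm19136* and *Ptgs2os*), and 4 of the 10 genes lie on chromosome 2.

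Markers of cell types were read beside these results, as summed intensities of each gene's brightest probe. The sums were not scaled to the array, unlike the log2 changes. The 75th percentile was 951 to 1146 units with BSA and 793 to 1022 with Rspo2. It was 774 to 899 with Wnt3a and 942 to 1058 with both, so the sums also carry array brightness. The luminal epithelial markers were weak in every sample, with 2 of 8 detected (*Krt8* and *Cldn3*), summed signals of 103 to 334 units led by *Krt8*, and *Krt18*, *Krt19*, *Epcam*, *Cdh1*, *Cldn7* and *Elf5* not detected. Of 6 basal or myoepithelial markers 5 were detected (not *Oxtr*), led by *Acta2*, and of 8 fibroblast markers 7 (not *Thy1*), led by *Vim*, at 180310 to 293114 units. Of the epithelial markers, then, the basal ones were mostly present and the luminal ones mostly not, beside those of fibroblasts. The basal sum was 132141 to 152126 units in the BSA arrays, 150132 to 185150 for Rspo2, 143484 to 169650 for Wnt3a and 232904 to 242792 with both proteins. Its members did not move together: with both against BSA *Krt14* rose by 1.24 and *Acta2* by 0.78, *Krt17* fell by 0.35 and *Trp63* by 0.40, and *Krt5* differed by 0.22 (adjusted p = 0.387) from BSA but rose by 1.06 relative to Rspo2. Basal markers also changed with the single proteins. *Acta2* rose by 0.43 with Rspo2 and by 0.48 with Wnt3a, and *Krt14* by 0.66 with Wnt3a. *Krt5* fell by 0.84 with Rspo2 and by 0.57 with Wnt3a. Luminal *Krt8* fell by 1.15 with both against BSA. Of the fibroblast markers 4 of the 7 detected fell with both against BSA, where 39.2% of all detected probes passed the adjusted p. They were *Pdgfra* by 1.37 (past 2-fold), *Dcn* by 0.90, *Col3a1* by 0.85 and *Pdgfrb* by 0.60. *Dcn* was dim, with a median of 32.0 units with both. The list sum with both, 229272 to 257890 units, overlapped that with BSA, 242014 to 293114. The sums of 180310 to 241899 for Rspo2 and 200409 to 220099 for Wnt3a are not compared with BSA, since those arrays differ in brightness. On the scaled values *Pdgfra* fell by 0.56 with Rspo2 and by 0.81 with Wnt3a, and *Col1a1* by 0.47 and 0.31. With Wnt3a *Col3a1* also fell by 0.59, whereas *Vim* rose by 0.25. Of all detected probes 16.8% passed the adjusted p with Rspo2 and 31.5% with Wnt3a. Of 6 macrophage markers *Csf1r*, *Cd68* and *Cd14* were detected and the defining *Ptprc*, *Adgre1* and *Itgam* were not, with sums led by *Cd14* of 5543 to 7780 units in the BSA arrays, 6076 to 6959 for Rspo2, 4249 to 4663 for Wnt3a and 3577 to 3743 with both. *Cd14* fell by 0.79 with both against BSA and by 1.00 against Rspo2, and *Csf1r* fell by 0.75 from BSA. With Wnt3a alone *Cd14* differed from BSA by -0.20 (adjusted p = 0.118). No mast cell marker of 4 was detected (sums of 21.9 to 53.9 units, led by *Mcpt4*). *Cdh5* alone of 4 endothelial markers was detected, with list sums of 2340 to 2980 units with BSA and 1282 to 1922 in the other groups. On the scaled values *Cdh5* fell by 0.41 with Rspo2, by 0.49 with Wnt3a and by 0.55 with both. *Fabp4* alone of 3 adipocyte markers was detected. Its list had sums of 536 to 557 units in the BSA arrays, 590 to 714 for Rspo2, 417 to 451 for Wnt3a and 272 to 346 with both. *Fabp4* fell by 0.81 with both against BSA and by 1.22 against Rspo2. On the scaled values it differed from BSA by 0.06 with Wnt3a (adjusted p = 0.752) and by 0.41 with Rspo2 (adjusted p = 0.0531). The basal, macrophage, endothelial and adipocyte sums, *Krt8* and 4 fibroblast markers thus differed in the arrays with both proteins, as did *Ptger4* and *Ptgs2*, and the part of these cell type markers in the changes was not tested. Some of these markers also changed with Rspo2 or Wnt3a alone.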

How the data were processed

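The labels and methods state that poly(A)+ RNA was linearly amplified, labelled with Alexa-555 and hybridised to Agilent arrays, read with Agilent Feature Extraction 9.5.3.1. The deposited scanner files hold the processed signal of each spot as a linear intensity, already background-corrected by the authors' software. The authors also deposited a table of scaled signals, a ratio to the 75th percentile, which was used only as an alternative. It was matched to the scanner files by probe.

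The linear intensities of the spots of a probe were averaged, the averages were put on the log2 scale, and the array's 75th percentile was subtracted. The deposited intensity values were not changed otherwise. Control spots and 1327 of 520548 spot values flagged as outliers were left out. Of 41174 probes, the 22751 (55.3%) that the software marked well above background throughout some group were tested. A group-means model over the 12 arrays was fitted with limma 3.58.1 in R 4.3.3 (lmFit, eBayes), with Benjamini-Hochberg adjusted p-values over all tested probes for each comparison. A gene of a list was represented by its brightest detected probe. Within groups, arrays correlated at 0.989 to 0.996, and 3 arrays a group limit the precision. On data simulated for both proteins against BSA over 22751 probes, 97% of 3-fold changes passed both thresholds and 51% of 1.5-fold changes passed the adjusted p. The simulation changed only a small part of the probes and had independent normal noise without a slide effect. In the data 39.2% of probes passed the adjusted p in this comparison, so the simulated shares are not its sensitivity.

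The 10 genes and all lists were chosen with earlier results of these data known. All probes of the 10 genes are named; a list gene is named where it passed both thresholds in a comparison, except *Hpgds*, *Tbxas1*, *Ptger1*, *Ptger3* and *Ptgir*, which always are, *Il1a*, *Il1b*, *Tnf* and *Pla2g5*, which were singled out after their values were seen, and markers, which are named by their detection and change; and for *Ptger4* and *Ptgfr* the 3 most alike genes are named. Promoters are from RefSeq (GRCm38.p6). The alternatives were other background corrections, scalings and filters, the authors' table, the methods' t-test, slide or replicate terms, no fold requirement, and each array left out; leaving out both arrays with the most probes above background was added after seeing the data.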

Additional observations from a re-analysis of the deposited data

Results flagged for a closer look

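*Ptgds*, the prostaglandin D synthase gene, had an interaction of Rspo2 and Wnt3a of -0.80 on the log2 scale (adjusted p = 0.0385 in limma), which is why it is listed: the difference that Rspo2 made was 0.34 without Wnt3a and -0.46 with it. With slide as a term the interaction was -0.98 (adjusted p = 0.163).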

How the results depend on the processing

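Across 25 alternatives, the number of the 9 probes past both thresholds moved as follows. Without a fold requirement it was 5 for Wnt3a against BSA, 7 for both proteins against BSA, 1 for both against Wnt3a, 5 for both against Rspo2 and 1 for the interaction. For both against BSA it was 1 with normexp, 1 with the methods' t-test, unadjusted or adjusted, and 1 with slide as a term, *Ptger4* being the probe that stayed. For both against Rspo2 it was 1 with normexp and 0 with the adjusted t-test. On leaving out each array it ranged from 0 to 1 for Wnt3a against BSA (1 without BSA replicate 3, *Ptgfr*) and from 1 to 2 for both against BSA (1 without BSA replicate 1, and 1 without that array and replicate 1 of both, a setting added after seeing the data). Without the filter on dim probes it was 3 for both against BSA, the third being the second, dim probe of *Ptgfr*.

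Of 34 changes given singly, 3 turned their sign. *Pla2g4a* by probe 1 was -0.063 with Wnt3a and -0.089 with both under quantile normalization, and -0.013 with both with the percentile of only those probes that were detected on all 12 arrays. *Ptgs1* with Wnt3a was -0.26 under quantile normalization, -0.10 with that percentile, -0.10 with slide as a term, -0.00035 with slide as a random block, and -0.051 to 0.10 on leaving out each array. Of the 20 changes given only as ranges, 14 turned under at least 1 alternative, the largest at a size of 0.31. The median over all probes moved to 0.15 for Rspo2 against BSA with normexp and to -0.12 for Wnt3a against BSA with the percentile of probes detected throughout.

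Same-numbered replicates were not paired: of 18 such pairs, 4 had deviations correlated above 0.1 (-0.413 to 0.271). With replicate as a block the counts past both thresholds were again 2 for both against BSA and 2 for both against Rspo2, and 4 reported changes rose above the adjusted p threshold: *Ptges* with Wnt3a (0.0626), *Ptgs1* with both against Rspo2 (0.0557) and the interactions of *Ptgds* (0.0819) and *Pla2g2e* (0.0576). The cause of these changes was not tested. Apart from the setting without a fold requirement and the unadjusted t-test, the counts over all tested probes were 164 (2 to 242 under the alternatives) for Rspo2, 573 (35 to 826) for Wnt3a and 1155 (330 to 1540) for both against BSA, 170 (11 to 340) for both against Wnt3a, 608 (205 to 788) for both against Rspo2 and 438 (3 to 744) for the interaction, each lowest with normexp or the adjusted t-test. The counts of 826 and 1540 came without the filter on dim probes, where 41173 probes were tested, undetected ones included.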
